A study of Mus musculus with 24 samples.

Results

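The genes described here encode 2 secreted neurotrophins, BDNF (Bdnf) and NT-3 (Ntf3), and 3 of the receptors that bind them, p75 (Ngfr), TrkB (Ntrk2) and TrkC (Ntrk3). They were taken by gene name from a table of 32310 entries, and all 5 were found. The table comes from FACS-sorted projection neurons of the developing cortex of CD1 mice, an outbred strain, with no mutation or treatment in the labels. There were 3 subtypes, corticothalamic neurons that project to the thalamus, subcerebral neurons that project to the brainstem and spinal cord, and callosal neurons that join the hemispheres. Each was collected at embryonic days 15, 16 and 18 (E15, E16, E18) and at postnatal day 1 (P1), which makes 12 groups. The labels list 24 poly(A)-selected libraries, 2 per group, but the table has 1 value per group, so no value has an SD or n of its own. Neither the sort markers nor the source of the libraries of a group (separate animals or pools) is given in the sources used here. The question put to these values was which neurotrophin genes each subtype expressed and how that changed with age.

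Neurotrophins are small growth factors made as longer precursors. Mature BDNF binds TrkB and NT-3 binds mainly TrkC, both receptor tyrosine kinases that signal through adaptor proteins to the Ras, phosphoinositide 3-kinase and phospholipase C pathways. The p75 receptor has no kinase, binds all mature neurotrophins, and with sortilin binds the precursors. In the developing cortex these proteins are known for their part in neuron survival, dendrite growth and synapse formation.

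In short, all 3 receptor genes were highest in corticothalamic neurons at every stage. Ngfr was below 1 FPKM in the other subtypes except in subcerebral neurons at E15, where it had an intermediate level. Ntrk2 rose between E15 and P1, and Ntrk3 was at least 18.5 FPKM in every group. Ntf3 and Bdnf stayed below Ntrk2 and Ntrk3 in every group, and both had their highest values in callosal neurons, at 12.8 and 0.781 FPKM. The values are read as FPKM, a count of fragments scaled to transcript length and to the fragments mapped, so levels of different genes are on a scale per length. As each is a level in sorted bulk RNA, fewer cells that express a gene and less RNA per cell cannot be told apart.

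Promoter sequences are shown for the receptor gene with the widest difference between subtypes (Ngfr), the receptor gene called different between P1 and E15 over the 3 subtypes (Ntrk2) and the ligand gene with the highest level (Ntf3). They come from RefSeq on GRCm38.p6, which is not the mm9 build of the submitters, and run up to the annotated start, or to the first annotated exon base where that came earlier. Of the 5 genes, 4 matched the promoter table by symbol. Capitals mark GGGCGG (the GC box, a site of Sp-family factors) and CAGATG (an E-box, bound by neurogenic bHLH factors), each searched on both strands, so their reverse complements CCGCCC and CATCTG count too. In these windows no match of one motif overlaps a match of the other.
Ngfr, chr11:95587736-95587948, minus strand, GRCm38.p6: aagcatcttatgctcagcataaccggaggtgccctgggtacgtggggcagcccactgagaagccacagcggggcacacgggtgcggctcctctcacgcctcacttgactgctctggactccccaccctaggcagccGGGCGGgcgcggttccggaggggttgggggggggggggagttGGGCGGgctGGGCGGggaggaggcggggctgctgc
Ntrk2, chr13:58806319-58806568, plus strand, GRCm38.p6: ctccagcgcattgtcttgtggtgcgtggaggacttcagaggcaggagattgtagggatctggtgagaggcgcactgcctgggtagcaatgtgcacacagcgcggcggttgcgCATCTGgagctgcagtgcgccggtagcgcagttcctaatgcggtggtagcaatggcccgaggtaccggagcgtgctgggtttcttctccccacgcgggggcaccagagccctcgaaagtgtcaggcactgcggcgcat
Ntf3, second annotated start, chr6:126164961-126165210, minus strand, GRCm38.p6: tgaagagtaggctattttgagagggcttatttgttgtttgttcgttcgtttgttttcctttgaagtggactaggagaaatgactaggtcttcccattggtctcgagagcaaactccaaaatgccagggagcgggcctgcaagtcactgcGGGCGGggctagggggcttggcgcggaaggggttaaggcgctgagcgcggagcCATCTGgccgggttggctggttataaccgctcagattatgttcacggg
The Ngfr window of 213 bases held 3 GC boxes and no such E-box, and 70.9% of its bases were G or C. At least 1 GC box stood in 27.4% of 32851 promoters in windows of that length, and their median G and C share was 51.6%. The Ntrk2 window of 250 bases held 1 E-box and no GC box, with 62.8% G and C. The Ntf3 window of 250 bases held 1 of each, with 54.0% G and C. Over all promoters in windows of 250 bases, 32.7% had a GC box and 14.4% had the E-box, and the median G and C share was 52.4%. These matches describe letters in a window and carry no evidence of binding.

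Ngfr encodes the p75 receptor. Its level was 41.0, 43.7, 47.9 and 54.5 FPKM in corticothalamic neurons at E15, E16, E18 and P1. In subcerebral neurons it was 9.08, 0.825, 0.285 and 0.230 FPKM at the same stages. In callosal neurons it was 0.294, 0.129, 0.282 and 0.181 FPKM. The lowest corticothalamic value therefore stood above every value of the other subtypes, and the subcerebral value at E15 stood above all later subcerebral and all callosal values. At P1 the corticothalamic level was higher than that of 88.6% of the 13946 tested genes, while the callosal level was higher than that of 1.20%. Tested genes had to reach 1 FPKM in 2 or more groups, which leaves out most low genes. Over all 32310 entries these shares were 95.1% and 49.2%. As a ratio of FPKM, corticothalamic over callosal neurons stood at 139, 338, 170 and 301 from E15 to P1. Corticothalamic over subcerebral neurons gave 4.52, 52.9, 168 and 237. Ratios over values below 1 FPKM rest on an unknown number of reads.

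**Figure D1:**
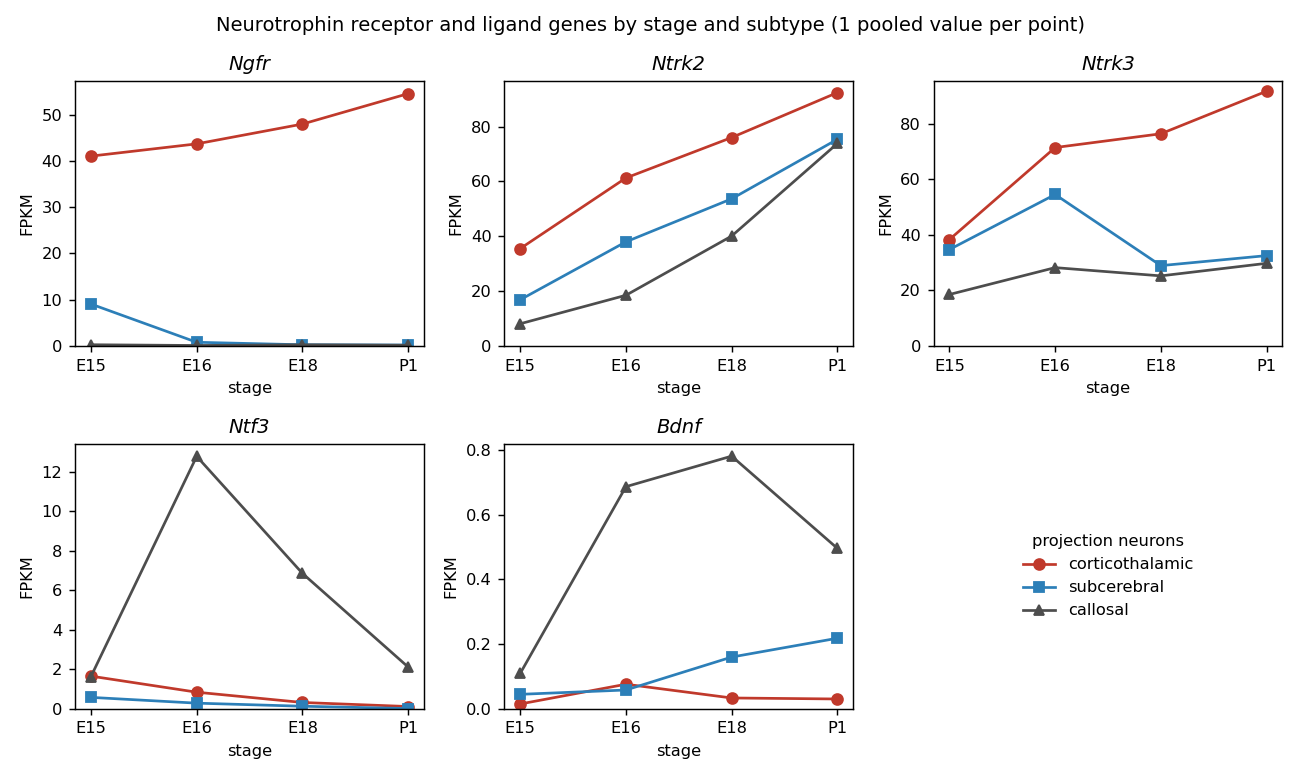
Level of each gene in FPKM (vertical axis, linear, a separate scale per panel) at E15, E16, E18 and P1 (horizontal axis) in corticothalamic (red circles), subcerebral (blue squares) and callosal (grey triangles) neurons, with 1 pooled value per point and no error available. The corticothalamic line is the top one in each receptor panel, and the callosal line stands at 12.8 FPKM for Ntf3 at E16.

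Differences between groups were tested with limma on log2(FPKM + 1) over all 12 values, with additive terms for stage and subtype. A gene entered if 2 or more columns reached 1 FPKM, which Ngfr, Ntrk2, Ntrk3 and Ntf3 did and Bdnf did not. The standard error (SE) and p-value of this fit rest on how unevenly differences between subtypes held over the 4 stages. That unevenness is pooled over all 3 subtypes and moderated with that of other genes, so the third subtype enters every pair. Neither says how a difference compares with the spread between libraries. Ngfr was higher in corticothalamic than in callosal neurons by 5.28 ± 0.52 (SE) on that scale (limma adjusted p = 0.000246), the third largest absolute difference among the tested genes. In this comparison 16% of tested genes were called higher and 15.3% lower at an adjusted p under 0.05. Of the 4 tested neurotrophin genes, 3 were called higher (Ngfr, Ntrk2, Ntrk3) and 1 lower (Ntf3), with a median difference of 1.30 against -0.01 over all tested genes.

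Corticothalamic neurons also exceeded subcerebral neurons in Ngfr, by 4.35 ± 0.52 (limma adjusted p = 0.00222), the second largest absolute difference of that comparison. Here 12.8% of tested genes were called higher and 14.7% lower, and 2 of the 4 tested neurotrophin genes were higher (Ngfr, Ntrk3) with none lower. Both comparisons share the corticothalamic values, so they are not independent of each other. Between subcerebral and callosal neurons Ngfr differed by 0.93 ± 0.52, with a 95% interval of -0.26 to 2.11 (limma adjusted p = 0.202). P1 and E15 differed in Ngfr by -0.92 ± 0.60 (limma adjusted p = 0.200), a difference that was 0.14 without subcerebral neurons (limma adjusted p = 0.429). For Ngfr, values that did not overlap between corticothalamic and callosal neurons, higher in the first, were shared by 8.02% of tested genes, and for corticothalamic against subcerebral neurons by 4.65%.

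Markers of other cell types were read beside Ngfr. The summed level of 6 corticothalamic markers (Tle4, Foxp2, Tbr1, Zfpm2, Ntsr1, Sox5) in subcerebral neurons was 475, 201, 122 and 92.7 FPKM from E15 to P1, lower at each later stage as Ngfr was there. Tle4, Tbr1, Zfpm2 and Sox5 each fell at every step there, while Foxp2 and Ntsr1 did not. Foxp2 was at 9.86, 5.60, 6.74 and 8.64 FPKM in subcerebral neurons from E15 to P1, and Ntsr1 at 21.9, 45.0, 29.3 and 25.7 FPKM. The corticothalamic sums were 815, 689, 637 and 562 FPKM, lower at each later stage while Ngfr was higher. The callosal sums were 162, 138, 139 and 115 FPKM, above the subcerebral sums at E18 and P1. The 8 subplate markers, of deep early-born neurons, summed to 55.5 to 189 FPKM in corticothalamic neurons, 12.2 to 37.4 FPKM in subcerebral neurons and 12.8 to 39.5 FPKM in callosal neurons. Of the 4 subplate markers tested, 2 were higher in corticothalamic than in callosal neurons (Nxph4, Tmem163) and 2 than in subcerebral neurons (Nxph4, Ctgf). Of all tested genes, 16% were higher in the first comparison and 12.8% in the second. Ctgf reached 1 FPKM only in corticothalamic neurons, so the filter fixed its direction beforehand. Nxph4 alone had 35.0 to 109 FPKM in corticothalamic neurons. Nr4a2, also tested, was at 37.3 and 30.2 FPKM in callosal neurons at E18 and P1, against 7.20 and 14.7 FPKM in corticothalamic neurons, which had more at E15 and E16. At P1 Tmem163 was at 33.1 FPKM in subcerebral and 22.0 FPKM in corticothalamic neurons. No marker of that list was listed at 0 throughout. The part of these cells in the Ngfr values was not tested.

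The genes whose log2(FPKM + 1) followed Ngfr most closely over the 12 groups were Serinc5 (Pearson r = 0.99), BC003348, Ror2, Fgfr4 and 6430548M08Rik (r = 0.98). They were taken from 2960 tested genes with an SD of at least 0.5, without the unannotated loci named XLOC_. The same candidates served for the other neurotrophin genes. Ror2 encodes a Wnt receptor tyrosine kinase and Fgfr4 a fibroblast growth factor receptor. Fgfr4 averaged 11.5 FPKM in corticothalamic, 1.97 FPKM in subcerebral and 0.380 FPKM in callosal neurons. Ror2 averaged 2.34, 0.431 and 0.292 FPKM in the same order of subtypes. Such r values describe groups that share subtype and stage, and have no p here.

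Ntrk2 encodes TrkB, the receptor of BDNF and NT-4. Its level from E15 to P1 was 35.5, 61.3, 76.0 and 92.4 FPKM in corticothalamic neurons. It was 16.9, 38.0, 53.7 and 75.4 FPKM in subcerebral neurons. In callosal neurons it was 8.14, 18.5, 40.1 and 73.8 FPKM. Ntrk2 stood higher at each later stage in all 3 subtypes, a pattern found in 8.38% of tested genes. All P1 values lay above all E15 values, which held in this direction for 27.6% of tested genes. The table gives 1 value per gene, so the full-length and the truncated, kinase-less forms of TrkB, both known from the mouse brain, are not separated here.

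Over the subtypes, P1 exceeded E15 in Ntrk2 by 2.16 ± 0.27 (limma adjusted p = 0.000185). With 33.8% of tested genes called higher and 33.6% lower between these stages, the 1 of 4 tested neurotrophin genes called higher is no larger a share than that over all tested genes. The ratio of P1 to E15 was 2.60 in corticothalamic, 4.46 in subcerebral and 9.07 in callosal neurons. Of the variation of Ntrk2 over the 12 groups, 66.6% lay between stages and 25.8% between subtypes, against medians of 57.7% and 24.4% over tested genes. Age and any step of collection or preparation that all groups of a stage shared cannot be told apart.

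TrkB is also made by glia, so astrocyte and radial glia markers were read beside it. Of 7 tested, 1 was higher at P1 (Slc1a2) and 2 were lower (Slc1a3, Hes5). Of all tested genes, 33.8% were higher and 33.6% lower at P1, which also stands beside the interneuron and progenitor counts below. The 10 markers summed to 48.0 to 78.7 FPKM at P1 and 63.2 to 86.4 FPKM at E15, and the astrocyte genes Aqp4 and Gfap were at most 0.0836 and 0.0932 FPKM in any group. Of 8 interneuron markers tested, 1 (Npy) was higher at P1 and none was lower, with a median difference of -0.65. The summed level of that list was 398 to 716 FPKM at P1 and 11.2 to 89.3 FPKM at E15, of which Npy alone made up all but a small share at P1. In callosal neurons Dlx1 was at 0.877 FPKM at P1 and 20.0 FPKM at E15, and Gad1 at 0.268 FPKM at P1 and 7.53 FPKM at E15. Of 7 progenitor markers tested, 1 was higher and 6 were lower at P1, with a median difference of -1.23, and the list of 8 summed to 4.62 to 15.7 FPKM at P1 and 21.1 to 36.5 FPKM at E15. The part of interneurons and progenitors in the Ntrk2 change was not tested.

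The subtype difference in Ntrk2 was widest at E15 and narrowed with age. Corticothalamic over callosal ratios were 4.37, 3.31, 1.90 and 1.25 from E15 to P1. Those of corticothalamic over subcerebral neurons were 2.10, 1.61, 1.42 and 1.23, and those of subcerebral over callosal neurons were 2.07, 2.05, 1.34 and 1.02. Averaged over stages, corticothalamic exceeded callosal neurons by 1.22 ± 0.23 (limma adjusted p = 0.00549). Without E16 this became 1.07 (limma adjusted p = 0.0546, over a range of 0.00400 to 0.0546 for all alternatives). With subcerebral neurons left out, the adjusted p from limma was 0.0330. Corticothalamic and subcerebral neurons differed by 0.62 ± 0.23, with a 95% interval of 0.09 to 1.16 (limma adjusted p = 0.0766), and subcerebral and callosal neurons by 0.60 ± 0.23, with an interval of 0.07 to 1.14 (limma adjusted p = 0.0846). Both of these pairs fell short of the threshold after adjustment, and the values of all 3 subtypes overlapped across stages.

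The genes most like Ntrk2 over the 12 groups were Pld2 (r = 0.99), etoile, Pitpnm1, Chmp2b and Gm5151 (r = 0.97). Pld2 encodes a phospholipase D and Chmp2b a subunit of the ESCRT-III membrane-remodelling complex. Pld2 averaged 6.45 FPKM in corticothalamic, 4.32 FPKM in subcerebral and 3.27 FPKM in callosal neurons.

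Ntrk3 encodes TrkC, the main receptor of NT-3. It was at 38.3, 71.4, 76.3 and 91.6 FPKM from E15 to P1 in corticothalamic neurons. In subcerebral neurons it was at 34.7, 54.5, 28.9 and 32.5 FPKM, with its highest value at E16. In callosal neurons it was at 18.5, 28.2, 25.2 and 29.8 FPKM. Every corticothalamic value was above every callosal value, while the corticothalamic value at E15 lay below the subcerebral value at E16. The E15 levels of corticothalamic and subcerebral neurons were close, with a ratio of 1.10, and the ratio was 1.31 at E16, 2.64 at E18 and 2.82 at P1.

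Corticothalamic exceeded callosal neurons in Ntrk3 by 1.37 ± 0.21 (limma adjusted p = 0.00213), and the ratio at single stages was 2.06, 2.53, 3.02 and 3.08 from E15 to P1. Corticothalamic exceeded subcerebral neurons by 0.84 ± 0.21 (limma adjusted p = 0.0231). That call rested on the stages used, as the adjusted p from limma was 0.0814 without E16, 0.164 without E18, 0.113 without P1 and 0.0751 with callosal neurons left out, over a range of 0.00602 to 0.164 for all alternatives. Subcerebral and callosal neurons differed by 0.53 ± 0.21, with a 95% interval of 0.05 to 1.01 (limma adjusted p = 0.0909). P1 and E15 differed by 0.60 ± 0.24 (limma adjusted p = 0.0546). Without subcerebral neurons that difference was 0.95 (limma adjusted p = 0.00626). The subplate marker sums given for Ngfr were likewise higher in corticothalamic neurons than in the other subtypes at every stage. Nxph4 was the largest part of these corticothalamic sums, and Nr4a2 and Tmem163 did not follow them at every stage. The part of subplate cells in the Ntrk3 values was not tested.

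**Figure D2:**
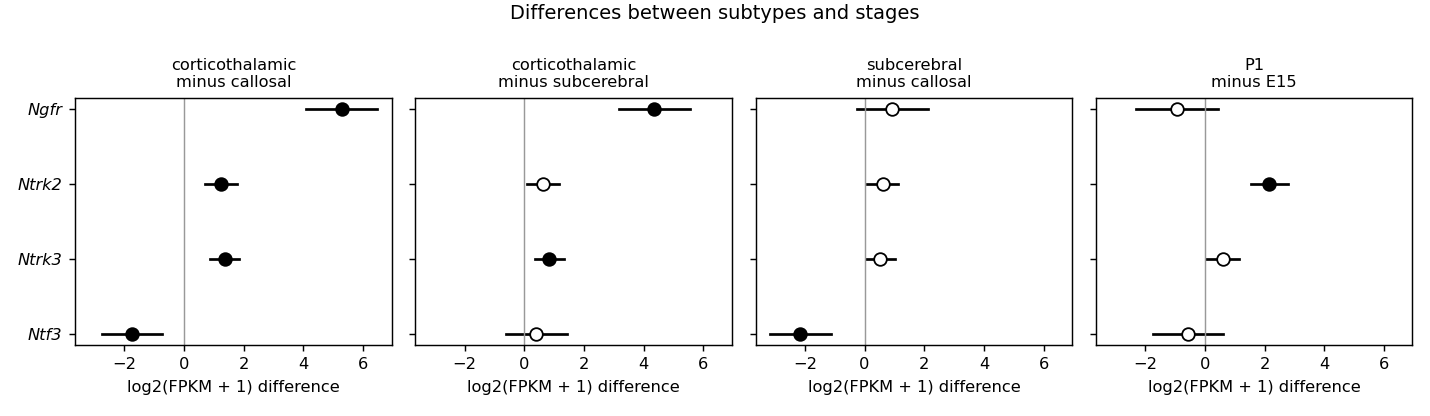
Difference in log2(FPKM + 1) (horizontal axis) of the 4 tested genes in each comparison, the group named first minus the group named second. Points are limma estimates, bars are 95% intervals, filled points have an adjusted p under 0.05, and Ngfr lies at 5.28 for corticothalamic minus callosal and 4.35 for corticothalamic minus subcerebral neurons.

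In all 4 stages the order corticothalamic above subcerebral above callosal held for Ngfr, Ntrk2 and Ntrk3, against 3.51% of tested genes. Some of its steps were near ties. Subcerebral and callosal neurons had 0.285 and 0.282 FPKM of Ngfr at E18, and 75.4 and 73.8 FPKM of Ntrk2 at P1. Neither the subcerebral and callosal values of these 3 genes nor the corticothalamic and subcerebral values of Ntrk2 were separated by the fit. Of the variation over groups, 91.0% lay between subtypes for Ngfr and 70.6% for Ntrk3, with 2.62% and 16.1% between stages. Over the 12 groups Ngfr and Ntrk3 had a Pearson r of 0.79, Ntrk2 and Ntrk3 of 0.63, and Ngfr and Ntrk2 of 0.33, all on the log2 scale.

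The genes most like Ntrk3 were Dync1i1 (r = 0.95), Spsb1, Kcnk1, Podn and Slc35f3 (r = 0.90). Dync1i1 encodes a subunit of the dynein motor, which carries cargo toward the cell body, and Kcnk1 a potassium channel. Dync1i1 averaged 262 FPKM in corticothalamic, 169 FPKM in subcerebral and 119 FPKM in callosal neurons. Podn averaged 27.2 FPKM in corticothalamic, 3.34 FPKM in subcerebral and 0.332 FPKM in callosal neurons.

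The balance of the receptor genes differed between subtypes. The ratio of Ntrk2 to Ntrk3 in FPKM was 0.928, 0.859, 0.996 and 1.01 from E15 to P1 in corticothalamic neurons, so that the transcripts stayed near equal. It was 0.486, 0.697, 1.86 and 2.32 in subcerebral neurons. It was 0.439, 0.657, 1.59 and 2.48 in callosal neurons. Ntrk3 was thus the higher of the pair at E15 and E16 in both of these subtypes, and Ntrk2 at E18 and P1. Ngfr made up 35.7%, 24.8%, 23.9% and 22.9% of the summed FPKM of the 3 receptor genes in corticothalamic neurons from E15 to P1. Its share was 15% in subcerebral neurons at E15 and at most 0.884% there later, and at most 1.09% in callosal neurons. These ratios have 1 value per group and no test.

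**Figure D3:**
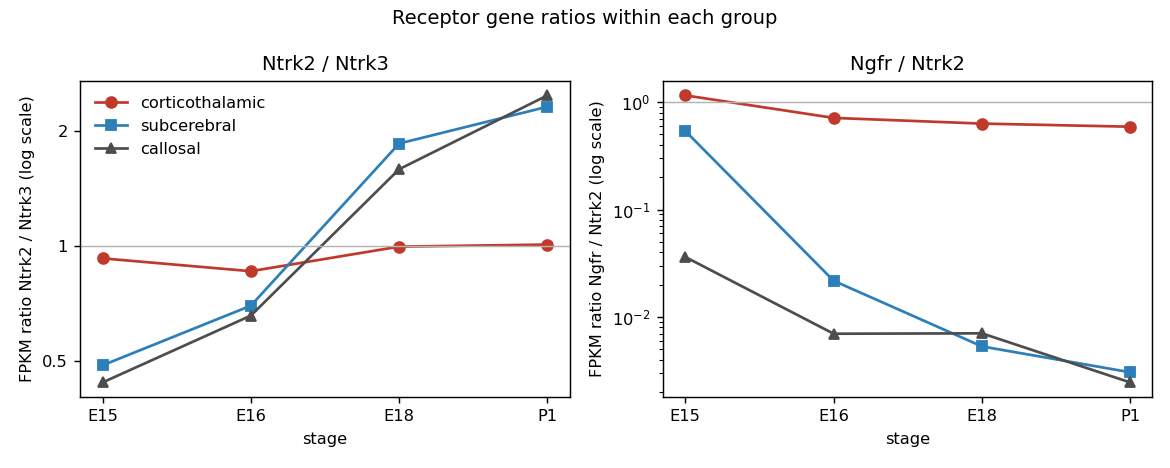
Ratio of Ntrk2 to Ntrk3 (left) and of Ngfr to Ntrk2 (right) in FPKM, on log axes, at the 4 stages in corticothalamic, subcerebral and callosal neurons, 1 pooled value per point. The left ratio stays between 0.859 and 1.01 in corticothalamic neurons and passes from below to above 1 between E16 and E18 in the other subtypes, and the right ratio at P1 is 0.590 in corticothalamic, 0.00306 in subcerebral and 0.00246 in callosal neurons.

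Among the ligand genes, Ntf3, which encodes NT-3, had the highest value. It was at 1.65, 0.840, 0.320 and 0.115 FPKM from E15 to P1 in corticothalamic neurons. In subcerebral neurons it was at 0.579, 0.286, 0.130 and 0.0124 FPKM. In callosal neurons it was at 1.64, 12.8, 6.86 and 2.11 FPKM. Corticothalamic and callosal neurons had near equal levels at E15, and the callosal level was the higher by 15.2, 21.4 and 18.4 times at E16, E18 and P1. All subcerebral values lay below all callosal values, as for 5.13% of tested genes, while the highest corticothalamic value just exceeded the lowest callosal value. The low values rest on an unknown number of reads.

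Ntf3 was lower in subcerebral than in callosal neurons, with a difference of -2.15 ± 0.44 on the log2 scale (limma adjusted p = 0.00981). In that comparison 15.2% of tested genes were called higher and 14.1% lower, and Ntf3 was the 1 neurotrophin gene of 4 that was called. The adjusted p from limma was 0.0678 without E16 and 0.0810 without E18, over a range of 0.00126 to 0.0810 for all alternatives. Corticothalamic minus callosal neurons gave -1.74 ± 0.44 (limma adjusted p = 0.0191). This call was lost in 5 of 11 alternatives, with a limma adjusted p of 0.102 without E16, 0.124 without E18, 0.0600 without P1, 0.0552 with subcerebral neurons left out and 0.0577 without the E16 callosal value, over a range of 0.00200 to 0.124. Corticothalamic and subcerebral neurons differed by 0.41 ± 0.44, with a 95% interval of -0.61 to 1.42 (limma adjusted p = 0.501). P1 and E15 differed by -0.55 ± 0.51 (limma adjusted p = 0.363), and without callosal neurons by -0.95 (limma adjusted p = 0.00776).

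Microglial genes moved with Ntf3. The gene closest to Ntf3 over the 12 groups was Pdzrn4 (r = 0.96), which averaged 1.44 FPKM in corticothalamic, 0.615 FPKM in subcerebral and 9.45 FPKM in callosal neurons. The next were the genes Fcrls (r = 0.94), Ly86 (r = 0.93), P2ry12 (r = 0.93) and Laptm5 (r = 0.92), all known from microglia and other immune cells. A list of 10 microglial markers summed to 5.42, 44.9, 22.7 and 22.2 FPKM in callosal neurons from E15 to P1, to 5.76 to 9.02 FPKM in corticothalamic neurons and to 4.18 to 7.45 FPKM in subcerebral neurons. Aif1 made up most of the sums outside callosal neurons, at 3.81 to 8.34 FPKM. At E15 Aif1 was at 1.88 FPKM in callosal, 5.41 FPKM in corticothalamic and 3.81 FPKM in subcerebral neurons. The median of the 10 markers at E15 was 0.407 FPKM in callosal, 0.0460 FPKM in corticothalamic and 0.0377 FPKM in subcerebral neurons. The other 9 markers were at most 0.190 FPKM in corticothalamic and 0.0915 FPKM in subcerebral neurons, and C1qa reached 5.84 FPKM in callosal neurons at E16. Of 9 microglial markers tested, 8 were lower in corticothalamic than in callosal neurons with 1 higher, and 8 were lower in subcerebral than in callosal neurons with none higher. Of all tested genes, 15.3% were lower in the first comparison and 14.1% in the second. The markers called lower reached 1 FPKM only in callosal neurons, so the filter fixed their direction beforehand and the counts carry no support.

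Ntf3 and the microglial sum both had their highest value in callosal neurons at E16, at 12.8 and 44.9 FPKM. Callosal neurons at E18 and at P1 had close microglial sums, 22.7 and 22.2 FPKM, and Ntf3 levels of 6.86 and 2.11 FPKM, 3.24 times apart. Corticothalamic neurons at E15 had 1.65 FPKM of Ntf3, with C1qa at 0.0275 FPKM, Csf1r at 0.0716 FPKM and Tyrobp listed at 0. Without the E16 callosal value, subcerebral minus callosal neurons in Ntf3 was -1.74 (limma adjusted p = 0.0318) and corticothalamic minus callosal was -1.33 (limma adjusted p = 0.0577). That setting was chosen after seeing the data, and it keeps the callosal groups at E18 and P1 with the sums given above. The share of the callosal Ntf3 level that stood with microglial RNA was not tested.

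**Figure D4:**
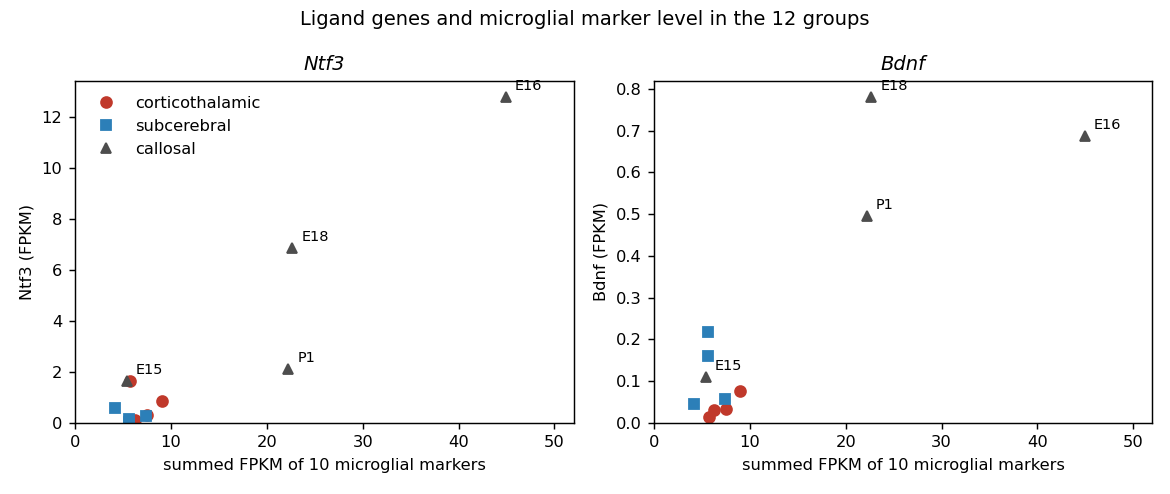
Level of Ntf3 (left) and Bdnf (right) in FPKM on the vertical axis against the summed FPKM of 10 microglial markers on the horizontal axis, 1 point per group, in corticothalamic (red circles), subcerebral (blue squares) and callosal (grey triangles, labelled by stage) neurons. The callosal groups at E16, E18 and P1 lie to the right, at sums of 44.9, 22.7 and 22.2 FPKM. By its sum of 5.42 FPKM the callosal group at E15 lies among the other subtypes, whose sums are mostly Aif1. The median of the 10 markers at E15 was 0.407 FPKM in callosal, 0.0460 FPKM in corticothalamic and 0.0377 FPKM in subcerebral neurons.

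Bdnf, which encodes BDNF and whose transcription in mature neurons follows activity, was below 1 FPKM in all 12 groups. It was at 0.0149, 0.0759, 0.0334 and 0.0303 FPKM from E15 to P1 in corticothalamic neurons. In subcerebral neurons it was at 0.0447, 0.0580, 0.160 and 0.218 FPKM. In callosal neurons it was at 0.109, 0.686, 0.781 and 0.496 FPKM. Every corticothalamic value was below every callosal value, as for 7.68% of tested genes, and the callosal values overlapped the subcerebral ones. Bdnf did not enter the tests for its low level, so that share was taken over genes that passed a filter Bdnf did not pass. In a fit with no filter, on 24570 genes, corticothalamic minus callosal neurons gave -0.52 (limma adjusted p = 0.0126) and subcerebral minus callosal neurons -0.42 (limma adjusted p = 0.0351). There corticothalamic minus subcerebral neurons gave -0.11 (limma adjusted p = 0.539), and P1 minus E15 gave 0.22 (limma adjusted p = 0.175).

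The genes most like Bdnf were Il1rap (r = 0.98), Mpeg1 (r = 0.97), St6gal2, Cldn1 and Kif26b (r = 0.96). Mpeg1 is named for its expression in macrophages and averaged 0.387 FPKM in corticothalamic, 0.495 FPKM in subcerebral and 2.65 FPKM in callosal neurons. Kif26b, a kinesin family gene, averaged 1.03 FPKM in corticothalamic, 1.68 FPKM in subcerebral and 15.6 FPKM in callosal neurons. The microglial markers given for Ntf3 stand beside Bdnf too, and their part in its values was not tested. Between the ligand genes, Bdnf and Ntf3 had a Pearson r of 0.81 over the 12 groups.

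Ligand and receptor transcripts were unequal in every group. The summed FPKM of Ntf3 and Bdnf was highest in callosal neurons at E16, at 13.5 FPKM, where Ntrk2 and Ntrk3 together had 46.7 FPKM. In corticothalamic neurons at P1 the ligand sum was 0.145 FPKM and the sum of both Trk genes 184 FPKM. In subcerebral neurons at P1 these sums were 0.230 and 108 FPKM. Ntf3 exceeded Bdnf in all corticothalamic and callosal groups, and in subcerebral neurons at E15 and E16 but not at E18 or P1.

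Ntf5, which encodes NT-4, the other ligand of TrkB, was at most 0.0787 FPKM in any group.

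Genes that act around the neurotrophins were read in 4 further lists. Their counts stand against the shares of all tested genes, which were 16% higher and 15.3% lower for corticothalamic against callosal neurons, 12.8% and 14.7% for corticothalamic against subcerebral neurons, 15.2% and 14.1% for subcerebral against callosal neurons, and 33.8% and 33.6% for P1 against E15. Among 19 tested genes for the processing and release of neurotrophin precursors, 9 were higher and 3 lower in corticothalamic than in callosal neurons, with a median difference of 0.32 against -0.01 over tested genes. The convertase gene Pcsk5 was higher by 3.03 ± 0.20 (limma adjusted p = 4.07e-05), with 6.08 to 12.9 FPKM in corticothalamic and 0.127 to 0.389 FPKM in callosal neurons. Serpini1, which encodes neuroserpin, an inhibitor of tissue plasminogen activator, was higher by 1.53 ± 0.25 (limma adjusted p = 0.00286). The vesicle gene Syt4 was lower by a difference of -3.68 ± 0.44 (limma adjusted p = 0.000616), with 6.53 to 28.3 FPKM in corticothalamic and 150 to 288 FPKM in callosal neurons, and the granin gene Scg2 by -2.19 ± 0.54 (limma adjusted p = 0.0171).

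In the same list 5 genes were higher and 2 lower in corticothalamic than in subcerebral neurons, and 3 were higher and 4 lower in subcerebral than in callosal neurons, where 15.2% of all tested genes were higher and 14.1% lower. Sorcs1, a sorting receptor gene, averaged 0.253 FPKM in corticothalamic and 26.6 FPKM in subcerebral neurons. Its values ran from 0.171 to 0.389 FPKM in the former and from 0.0596 to 63.9 FPKM in the latter. At E15 it was at most 0.171 FPKM in any subtype. Hap1, which encodes a partner of huntingtin in vesicle transport, averaged 4.67 FPKM in corticothalamic and 1.90 FPKM in subcerebral neurons. Cadps, which encodes a factor for dense-core vesicle release, averaged 40.3 FPKM in subcerebral and 15.4 FPKM in callosal neurons. Between P1 and E15, 11 of the 19 were higher and 3 lower, with a median difference of 0.90 against 0.00 over tested genes. The convertase gene Pcsk2 averaged 47.6 FPKM at P1 and 4.07 FPKM at E15 (limma adjusted p = 0.000520). Scg2 averaged 30.1 FPKM at P1 and 1.36 FPKM at E15, and Cadps2, another release factor gene, 8.77 FPKM at P1 and 0.221 FPKM at E15. Mmp3 and Mmp7, genes of metalloproteinases that cut the precursors, were listed at 0 in every group.

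Of 31 tested genes for p75 partners and for its cleavage, 5 were higher and 5 lower in corticothalamic than in callosal neurons, 3 higher and 6 lower in corticothalamic than in subcerebral neurons, and 10 higher and 5 lower in subcerebral than in callosal neurons. The first of these counts is near the 16% higher and 15.3% lower of all tested genes. Sort1, which encodes sortilin, the co-receptor of p75 for the precursors, had 53.5 to 66.1 FPKM in corticothalamic, 27.3 to 43.8 FPKM in subcerebral and 38.3 to 56.7 FPKM in callosal neurons. Corticothalamic exceeded subcerebral neurons in Sort1 by 0.81 ± 0.09 (limma adjusted p = 0.00182) and callosal neurons by 0.37 ± 0.09 (limma adjusted p = 0.0159). Lingo1, which encodes a co-receptor of p75 in the Nogo receptor complex, averaged 69.0 FPKM in corticothalamic and 112 FPKM in subcerebral neurons (limma adjusted p = 0.0341). Magi1, a scaffold gene, averaged 15.8 FPKM in corticothalamic, 20.8 FPKM in subcerebral and 6.46 FPKM in callosal neurons, and was called higher in both of the first 2 than in callosal neurons.

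Mapk8, which encodes the kinase JNK1, was lower in both other subtypes than in callosal neurons, averaging 39.6 FPKM in corticothalamic, 41.8 FPKM in subcerebral and 63.9 FPKM in callosal neurons. Ndn, which encodes necdin, a protein that binds p75, averaged 318 FPKM at P1 and 129 FPKM at E15 (limma adjusted p = 0.000944). Sorcs2, which encodes another p75 co-receptor, averaged 7.37 FPKM at P1 and 2.21 FPKM at E15. In all, 11 of the 31 were higher and 9 lower at P1 than at E15, near the 33.8% and 33.6% of all tested genes.

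Of 26 tested genes for adaptors and regulators of the Trk receptors, 4 were higher and 6 lower in corticothalamic than in callosal neurons, 3 higher and 3 lower in corticothalamic than in subcerebral neurons, and 3 higher and 5 lower in subcerebral than in callosal neurons. Of all tested genes, 16% were higher and 15.3% lower in corticothalamic than in callosal neurons. Grb2, which encodes the adaptor that links receptors to Ras, was higher in corticothalamic than in callosal neurons by 0.54 ± 0.05 (limma adjusted p = 0.000234), with 106 to 126 FPKM in corticothalamic and 73.4 to 88.4 FPKM in callosal neurons. Cblb, a ubiquitin ligase gene, averaged 58.0 FPKM in corticothalamic, 23.2 FPKM in subcerebral and 16.5 FPKM in callosal neurons. The adaptor gene Irs2 was lower in corticothalamic neurons than in either other subtype, averaging 2.97 FPKM there, 13.9 FPKM in subcerebral and 10.4 FPKM in callosal neurons. Kidins220, which encodes a scaffold bound by Trk receptors and p75, averaged 192 FPKM in subcerebral and 144 FPKM in callosal neurons (limma adjusted p = 0.00808).

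With age the adaptor list moved mostly down, as 18 of 26 genes were lower and 4 higher at P1 than at E15, with a median difference of -0.31. In this comparison 33.6% of all tested genes were lower. Gab1, an adaptor gene for phosphoinositide 3-kinase signalling, averaged 1.54 FPKM at P1 and 11.4 FPKM at E15 (limma adjusted p = 0.000182). Crkl averaged 9.40 FPKM at P1 and 27.2 FPKM at E15. In the other direction Ndfip1, an adaptor gene for Nedd4-family ubiquitin ligases, averaged 376 FPKM at P1 and 127 FPKM at E15.

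Of 34 tested genes for downstream kinases and their targets, 7 were higher and 6 lower in corticothalamic than in callosal neurons, 3 higher and 7 lower in corticothalamic than in subcerebral neurons, and 8 higher and 7 lower in subcerebral than in callosal neurons. The shares of all tested genes for corticothalamic against callosal neurons were 16% and 15.3%. The protein kinase C gene Prkca averaged 3.57 FPKM in corticothalamic, 6.30 FPKM in subcerebral and 12.1 FPKM in callosal neurons. The calcium-dependent kinase gene Camk2a averaged 9.89 FPKM in corticothalamic, 9.12 FPKM in subcerebral and 4.36 FPKM in callosal neurons. Between P1 and E15, 9 of the 34 were higher and 16 lower, beside 33.8% and 33.6% of all tested genes. Camk2a averaged 13.5 FPKM at P1 and 2.16 FPKM at E15 (limma adjusted p = 3.16e-05), and Creb1, which encodes a transcription factor activated downstream of TrkB, 5.61 FPKM at P1 and 14.6 FPKM at E15 (limma adjusted p = 8.00e-06).

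**Figure D5:**
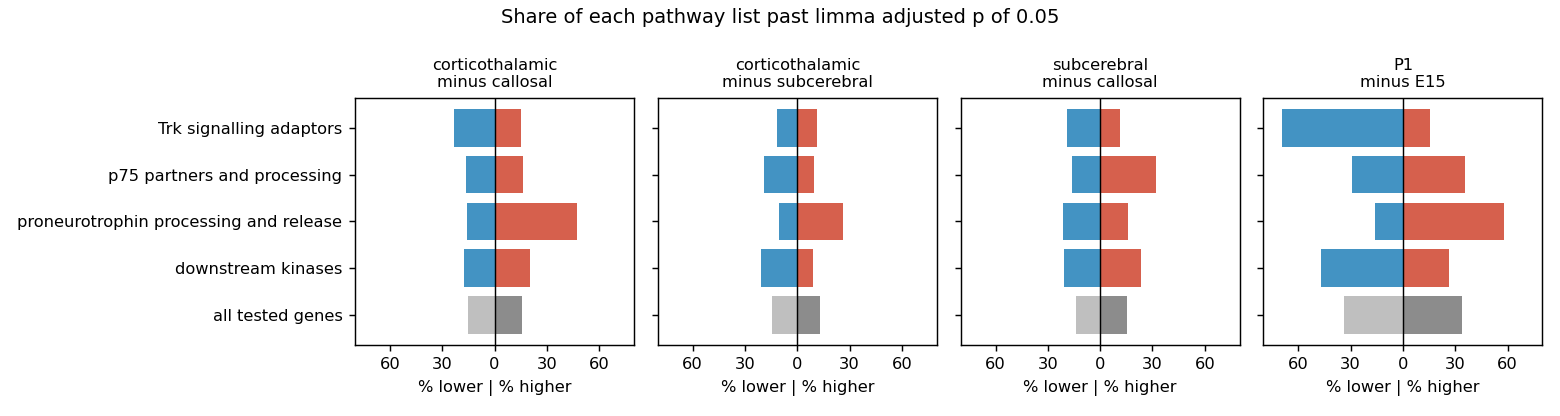
Percent of the tested genes of each list called lower (left of 0, blue) and higher (right of 0, red) by limma at an adjusted p under 0.05 in each comparison, the group named first against the group named second, with all tested genes in grey. At P1 against E15, 18 of 26 adaptor genes are lower and 11 of 19 precursor processing and release genes are higher, and all tested genes stand at 33.6% lower and 33.8% higher.

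The values behind these results cover 12294 to 12838 genes per group at 1 FPKM or more, with column sums of 355965 to 473871 FPKM, and the read depth is unknown. Most markers of each subtype followed the labels. The shares of all tested genes to set beside these counts are those given with the further lists. The callosal marker Inhba reached 1 FPKM only in callosal neurons. All 6 callosal markers were lower in corticothalamic and in subcerebral than in callosal neurons, all 6 corticothalamic markers were higher in corticothalamic than in callosal neurons and 5 of 6 than in subcerebral neurons, and all 6 subcerebral markers were higher in subcerebral than in callosal neurons. In corticothalamic against subcerebral neurons 4 of 6 subcerebral markers were lower and none was higher, and their summed levels were 216 to 302 FPKM in corticothalamic and 459 to 749 FPKM in subcerebral neurons. Crym and Pcp4 went against the label at the early stages. Crym was at 16.4 and 59.6 FPKM in corticothalamic neurons at E15 and E16, against 8.66 and 42.6 FPKM in subcerebral neurons. Pcp4 was at 25.8 and 21.4 FPKM in corticothalamic neurons at E15 and E16, against 6.09 and 5.69 FPKM in subcerebral neurons. The corticothalamic marker Sox5 was at 106 FPKM in corticothalamic and 128 FPKM in subcerebral neurons at E15. The callosal group at E15 had the highest Dlx1 and Lhx6 of all groups, interneuron genes at 20.0 and 16.3 FPKM. In the RefSeq annotation Ntrk2 and Ntrk3 each overlap 1 other gene, Gm53063 and Gm39038, and how reads there were assigned is not given in the sources used here.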

How the data were processed

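RNA-seq values of 24 libraries from FACS-sorted CD1 mouse cortical neurons were used as 1 value per stage and subtype, the authors' pooled value. The deposited values were read as FPKM, an inference from the use of Cufflinks, since the file header names no unit; TopHat2, Cufflinks and the build mm9 are named in the submitters' processing notes, with no version, annotation, filter or way of combining libraries in these sources. FPKM keeps no counts, so depth is unknown and no counting interval is given.

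The 13946 genes that reached 1 FPKM in 2 or more of the 12 columns were tested with limma 3.58.1 (statmod 1.5.0, R 4.3.3; variance trend, robust moderation) on log2(FPKM + 1). Stage and subtype entered as additive terms, leaving 6 residual degrees of freedom, with two-sided tests and Benjamini-Hochberg adjustment over all genes tested, at a threshold of 0.05. The residual is the interaction of subtype with stage. The log2(FPKM + 1) scale understates changes of low genes. The script was tested on simulated data.

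The gene names and lists were chosen with earlier results of these data known. The text names up to 4 genes per list and comparison, those with the largest absolute difference among those called. It also names the 5 genes with the highest Pearson r to each neurotrophin gene, with unannotated loci named XLOC_ left out. Alternatives changed the filter (none, or 5 FPKM), pseudocount (0.1), scaling, stages, subtypes and 1 value. Some list members are not reported here.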

Additional observations from a re-analysis of the deposited data

Results flagged for a closer look

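Some changes between P1 and E15 had opposite signs in different subtypes. Each rests on 1 value per stage and subtype, on the log2(FPKM + 1) scale, and none of these differences was tested. The change in Ngfr was 0.40 in corticothalamic and -3.03 in subcerebral neurons, 3.44 apart, and it was -0.13 in callosal neurons, 0.53 below the corticothalamic change. The change in Ntrk3 was 1.24 in corticothalamic and -0.09 in subcerebral neurons, 1.33 apart, and the subcerebral change minus the callosal change of 0.65 was -0.74. The change in Ntf3 was -1.25 in corticothalamic and 0.24 in callosal neurons, a difference of -1.49, and the subcerebral change of -0.64 minus the callosal change was -0.88.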

How the results depend on the processing

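For Ngfr, Ntrk2, Ntrk3 and Ntf3, 16 differences were recomputed under 10 or 11 alternative settings each, giving 172 values. Of these, 154 kept direction and side of the threshold, 12 kept direction and lost the call, 5 gained it and 1 changed sign: Ngfr between P1 and E15 was 0.14 without subcerebral neurons (limma adjusted p = 0.429), over a range of -1.58 to 0.14 as each subtype was left out, and was called in none of these. Higher Ngfr in corticothalamic neurons was called in all 11 alternatives of each comparison, at 5.19 to 7.21 against callosal and 3.97 to 5.51 against subcerebral neurons. The lost calls are given beside Ntrk2, Ntrk3 and Ntf3. Those gained were Ntrk2 in corticothalamic against subcerebral neurons with callosal neurons left out (limma adjusted p = 0.0339) and in subcerebral against callosal neurons without P1 (0.0406), Ntrk3 between P1 and E15 with median-ratio scaling (0.0440) and without subcerebral neurons, and Ntf3 between P1 and E15 without callosal neurons. The cause was not tested.

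Counts of called genes over the whole table depended on the columns used. Leaving out 1 stage gave 1868 to 4556 for corticothalamic against callosal (4361 with all), 251 to 6258 for corticothalamic against subcerebral (3835) and 1016 to 6179 for subcerebral against callosal neurons (4093). Leaving out 1 subtype gave 7676 to 8054 for P1 against E15 (9400). Fits on only the groups compared gave 4730 for corticothalamic against callosal, 2409 for corticothalamic against subcerebral, 2606 for subcerebral against callosal neurons and 6130 for P1 against E15. Without the E16 callosal value, a choice made after seeing the data, 2812 genes were called for corticothalamic against callosal and 2174 for subcerebral against callosal neurons. No paired analysis was possible because the table holds 1 value per group and no column carries a replicate number. Depth is unknown, so the values of Ngfr, Bdnf and Ntf3 below 1 FPKM have no counting error.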
